A study of Mus musculus with 8 samples.

Results

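Interferon-stimulated genes were followed in bulk RNA sequencing of pancreatic islets from 7-week-old NOD/ShiLtJ mice, the strain that develops autoimmune diabetes. A list of 36 such genes was matched by symbol to the gene table, and 34 of them had a row among its 14126 genes. Isg15 and Gbp5 had no row and are not analysed here. To switch on Cre, all 8 mice were injected intraperitoneally with tamoxifen (10 mg/ml) over 5 consecutive days. The group with floxed alleles, IRE1αfl/fl, is called WT (n = 4 mice) and the group with the deletion, labelled IRE1αβ-/-, is called KO (n = 4 mice). The promoter that drives Cre is not named in the labels, and islets were hand-picked after collagenase digestion, so each library holds the RNA of every cell type in the islet. IRE1α is a sensor of unfolded protein in the endoplasmic reticulum and is highly active in beta cells, and the comparison asks how the islet transcriptome differs after its deletion.

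Type I interferons signal through the receptor pair Ifnar1 and Ifnar2 and the kinases Jak1 and Tyk2 to a transcription factor complex that contains Stat2 and Irf9 and binds the interferon-stimulated response element in promoters. Interferon-γ signals through Ifngr1, Ifngr2, Jak1 and Jak2 and acts on promoters through the gamma-activated site. In islets, interferon signatures and the antigen presentation they drive are known from human and mouse type 1 diabetes.

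Promoters are shown for 6 members that passed the test over 8 libraries, either between genotypes without the replicate block or between library sets, and that hold one of these motifs close to the start of transcription. They were taken in order of their larger log2 difference in these fits, among members with a motif wholly inside the printed stretch. That stretch covers at most 160 bases before the start and stops at the GENCODE start where that lies upstream. Gbp2, Ifitm3, Ifit2, Irgm1 and Stat2 also passed but hold a motif only outside that stretch, so they are not shown. The motif searched for the response element was GAAANNGAAA, and TTTCNNTTTC on the other strand. The motif for the gamma-activated site was TTCNNNGAA, which reads the same on both strands. Sequences come from RefSeq on build GRCm38.p6 and are of the reference strain, not of NOD. Each is written 5′ to 3′ on the strand of its gene and ends just before the RefSeq start, or before the GENCODE start where that lies upstream. Capitals mark the motif.
Irf1: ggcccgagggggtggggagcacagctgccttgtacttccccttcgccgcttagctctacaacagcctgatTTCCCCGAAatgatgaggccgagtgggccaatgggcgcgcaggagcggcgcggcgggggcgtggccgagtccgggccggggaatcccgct
Socs1: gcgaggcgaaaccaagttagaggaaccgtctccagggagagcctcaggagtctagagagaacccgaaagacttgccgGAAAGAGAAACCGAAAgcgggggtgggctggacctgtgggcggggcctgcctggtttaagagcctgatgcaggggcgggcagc
Rsad2: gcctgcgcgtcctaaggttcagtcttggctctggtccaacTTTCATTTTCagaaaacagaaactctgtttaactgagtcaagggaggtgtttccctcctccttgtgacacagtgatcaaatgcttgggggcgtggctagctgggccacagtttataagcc
Ifit3: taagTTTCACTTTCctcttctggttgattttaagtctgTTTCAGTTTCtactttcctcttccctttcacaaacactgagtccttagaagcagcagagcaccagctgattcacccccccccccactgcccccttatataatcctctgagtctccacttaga
Gbp3: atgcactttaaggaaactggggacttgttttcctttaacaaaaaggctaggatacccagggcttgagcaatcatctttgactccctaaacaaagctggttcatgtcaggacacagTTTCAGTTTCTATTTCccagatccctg
Gbp7: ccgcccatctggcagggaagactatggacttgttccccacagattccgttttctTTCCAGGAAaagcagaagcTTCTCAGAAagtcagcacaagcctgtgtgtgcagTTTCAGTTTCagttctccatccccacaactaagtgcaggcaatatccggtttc
The Irf1 stretch, chr11:53769854-53770013 on the plus strand, holds a gamma-activated site whose first base lies 90 bases before the start. The Socs1 stretch, chr16:10785537-10785696 on the minus strand, holds a pair of overlapping response elements, 83 and 77 bases before the start. The Rsad2 stretch, chr12:26456453-26456612 on the minus strand, holds 1 response element at 120 bases. In Ifit3, chr19:34583369-34583528 on the plus strand, elements lie at 156 and 122 bases, the tandem layout typical of antiviral genes. The plus-strand stretches of Gbp3, chr3:142559884-142560025, and Gbp7, chr3:142530176-142530335, hold elements at 45 and 39 bases and at 53 bases, and Gbp7 has gamma-activated sites at 106 and 87 bases besides.

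RefSeq promoter windows of 300 bases, 250 before to 50 after the start, were found for 26 of the 34 members, in 30 windows. The response element was in 14 of these 30 windows (46.7%) and in 3.44% of all 32851 windows. The gamma-activated site was in 8 (26.7%) against 8.3% of all windows. In 5 member windows both were present, and in 2 the motifs overlapped. By role, the response element was in 5 of 6 windows of the GTPases, 7 of 15 of the antiviral effectors and 2 of 7 of the regulators. It was in 9 of 19 windows of members that passed either of these fits over 8 libraries (47.4%) and in 5 of 11 windows of the other members (45.5%). A match describes these letters only and is no measure of binding.

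Values in the table are whole numbers that look like normalized counts, with the normalization not stated in the sources used here. A library's values sum to between 32024139 and 34858983, which is not taken as the sequencing depth. The depth is unknown, so no counting interval is given. Differences are on the scale log2(value + 1), which understates the change of genes with low values, and were tested with limma-trend over 14121 genes with Benjamini-Hochberg adjustment at 0.05. The 4 libraries of a group come from separate mice. Beta-cell hormone genes and their partners summed to 5263416 to 5902332 in WT and 2484560 to 3417383 in KO, and alpha-cell markers to 414361 to 1052525 and 1922548 to 2624702, with no overlap between genotypes in either. Exocrine acinar markers summed to 23321 to 333786 in WT and 167058 to 510066 in KO, which overlap. None of the 12 was called between genotypes over 8 libraries (median log2 difference 1.63). Within libraries 1 and 2, 11 were higher in KO (median 2.73, all genes 12.2%), and within libraries 3 and 4 none was called (median 0.73). Ductal markers summed to 5677 to 6636 in WT and 11432 to 27991 in KO, and delta and PP cell markers to 101267 to 167379 and 272467 to 383779, neither of which overlapped. Ern1, the IRE1α gene, was higher in KO (log2 0.54 ± 0.08 SE, limma-trend adjusted p = 0.0023), and a total over all exons does not check the deletion. Every direction given here rests on the labels. In bulk islets, fewer cells of a type and less RNA per cell cannot be told apart. All 15 immediate early genes on a list were higher in the libraries numbered 3 and 4 of both genotypes than in those numbered 1 and 2. Their summed values were 11261 to 28153 in libraries 1 and 2 and 197991 to 393257 in libraries 3 and 4. The labels record no batch, and every result was therefore also taken within each of these library sets.

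Loss of IRE1α went with lower values in 2 of the 34 interferon-stimulated genes, Oas2 and Trim25, and with higher values in none. Over all 14121 genes, 9.81% were lower and 11.1% higher, so the members were called no more often than genes at large. At an unadjusted p below 0.05 there were 5 members (Oas2, Trim25, Stat2 and Usp18 on the lower side, Parp9 on the higher side), against 35.0% of all genes. The median log2 difference of the members was -0.30, that of all genes -0.00082, and 25 members were on the negative side and 9 on the positive. By log2 means, KO was below WT within both library sets for 20 of 34 members (58.8%, all genes 33.4%) and above in both for 6 (17.6%, all genes 36.1%). The median was -0.087 without WT replicate 3 and -0.081 without KO replicate 2. In the limma-trend fits without 1 library, Samd9l was called higher without WT replicate 1 (adjusted p = 0.047), Parp9 higher without WT replicate 4 (adjusted p = 0.035) and Stat2 lower without KO replicate 3 (adjusted p = 0.040). The values of each member in KO against WT are drawn in the plot of log2 fold changes, and most of the 34 did not pass the test. The fit has no term for library set, so the gap between sets adds to the spread between mice. For Irf1 the SE was 0.93 in this fit and 0.16 with such a term.

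Oas2 makes 2′-5′ oligoadenylates that switch on RNase L when double-stranded RNA is present. The gene lies on chromosome 5, 120730333 to 120749853 on the minus strand (GRCm38, GENCODE). WT libraries 1 to 4 had 46, 68, 67 and 71, and KO libraries 1 to 4 had 31, 26, 31 and 29. All KO values were below all WT values. The means were 63.0 ± 11.5 (SD, n = 4) and 29.2 ± 2.36 (SD, n = 4), a log2 difference of -1.06 ± 0.24 (SE) with a limma-trend adjusted p of 0.013. Oas2 kept its call when any single library was left out and within libraries 3 and 4 (adjusted p = 0.027), and missed it within libraries 1 and 2 alone (-0.95, adjusted p = 0.106). Of the related synthetases, Oas1a had a log2 difference of -0.13 ± 0.24 and Oasl2 of -0.36 ± 0.17, neither of which passed the test (limma-trend adjusted p = 0.746 and 0.171), and the difference between the family's members was not tested. Oas1a belongs to a cluster of near-identical copies, so its reads could be split between them.

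Trim25 is the ubiquitin ligase that activates the RNA sensor RIG-I. It lies on chromosome 11, 88999376 to 89020293 on the plus strand. WT libraries 1 to 4 had 1553, 1614, 1290 and 1077, and KO libraries had 926, 1069, 1014 and 969. Every KO value lay below every WT value, with WT 4 and KO 2 almost touching. Trim25 averaged 1384 ± 248 in WT and 994.5 ± 61.3 in KO (SD, n = 4), for a log2 difference of -0.46 ± 0.13 with an adjusted p of 0.036 by limma-trend. The call ended without any of WT replicates 1 to 3 or KO replicates 1 to 4 (adjusted p up to 0.092). Within libraries 1 and 2 the difference was -0.67 (adjusted p = 0.0097) and within libraries 3 and 4 it was -0.25 (adjusted p = 0.167).

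**Figure D1:**
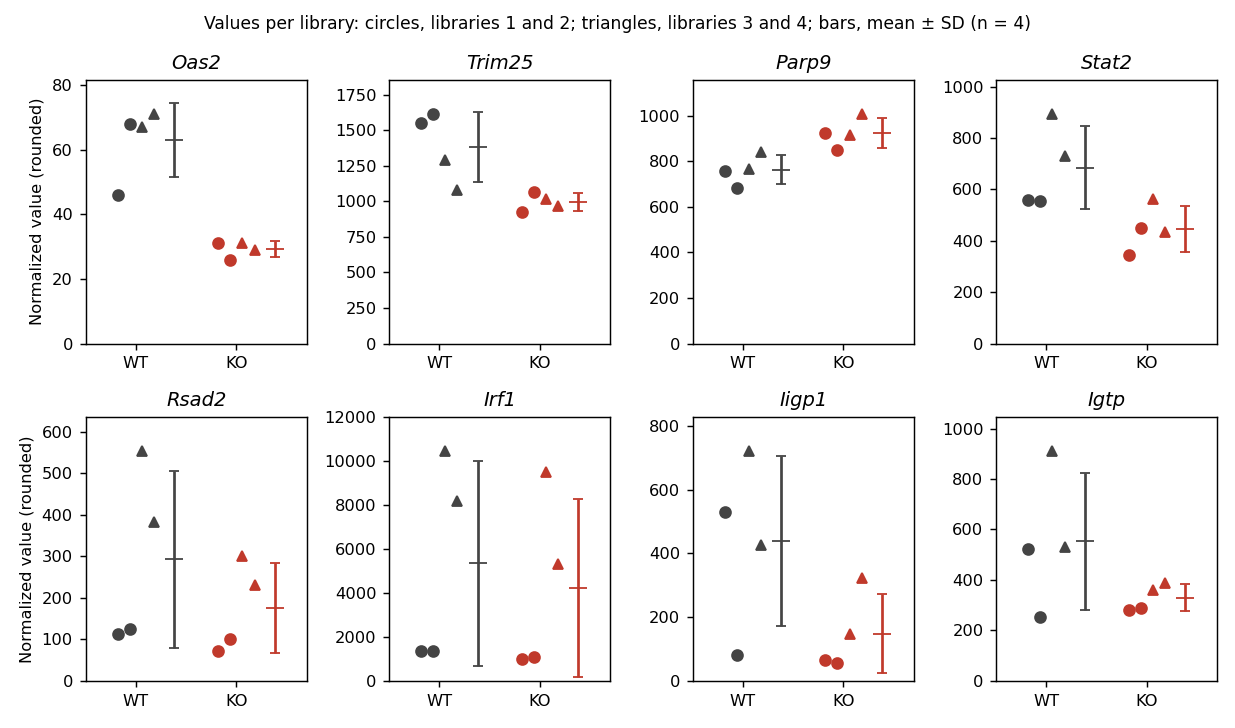
Normalized values of 8 interferon-stimulated genes in each library, WT in grey and KO in red. Circles are libraries 1 and 2, triangles are libraries 3 and 4, and bars give the mean ± SD (n = 4). Oas2, Trim25 and Parp9 show groups that do not overlap, whereas the WT and KO triangles and circles of Irf1 lie far apart within each genotype.

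It was not shown that same-numbered WT and KO libraries form pairs. With the replicate number as a block, 6 members were lower in KO (Stat2, Irf1, Trim25, Oas2, Rsad2 and Iigp1) and 1 was higher (Parp9). The share of all genes called in this fit was 11.7% lower and 14.2% higher.

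Stat2, Irf1, Rsad2, Iigp1 and Parp9 were called with the block and not without it. With the library set as a term in place of the block, Stat2, Rsad2, Iigp1 and Parp9 were called as well, and Irf1 was not. Stat2, a subunit of the type I interferon transcription complex, had 560, 555, 893 and 730 in WT libraries 1 to 4 and 343, 449, 563 and 433 in KO libraries 1 to 4. KO was lower in each same-numbered pair, as in 9 of 34 members (26.5%) and 21.8% of all genes, and 4 members were higher in each pair (all genes 24.9%). KO 3 of Stat2 lay just above WT 1 and WT 2, so the groups overlapped. The log2 difference was -0.61 ± 0.19, with a limma-trend adjusted p of 0.054 without the block and 0.0092 with it. Stat2 also passed within libraries 3 and 4 (-0.71, adjusted p = 0.022) and not within libraries 1 and 2 (-0.51, adjusted p = 0.068).

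Parp9, which forms a complex with the ubiquitin ligase Dtx3l and strengthens interferon responses, moved the other way. WT libraries 1 to 4 read 759, 685, 766 and 840, and KO libraries 1 to 4 read 924, 851, 915 and 1007. Every KO value was above every WT value, a pattern found in 13.6% of all genes, while 12.3% of all genes had all KO values below all WT values. The difference was 0.28 ± 0.09, with an adjusted p of 0.057 by limma-trend and 0.035 with the block. Dtx3l, which shares its promoter region with Parp9 on the opposite strand, had a difference of 0.18 ± 0.10 (adjusted p = 0.266) and Parp14, another ADP-ribosyltransferase, of -0.06 ± 0.12 (adjusted p = 0.778). The exons of Parp9 and Dtx3l overlap on opposite strands and the strandedness of the libraries is not given in the sources used here, so reads from that stretch cannot be assigned to one of the pair.

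The other regulators had wide errors in the fit without the block. Irf1, a transcription factor induced by interferon-γ that drives GTPase and antigen presentation genes, had 1384, 1366, 10451 and 8208 in WT libraries and 1008, 1100, 9534 and 5339 in KO libraries. KO was lower in all 4 same-numbered pairs, yet libraries 3 and 4 were far above libraries 1 and 2 in both genotypes. Its difference between genotypes was -0.38 in both fits, with a limma-trend adjusted p of 0.814 without the block and 0.027 with it. With the library set as a term in place of the block Irf1 was not called (adjusted p = 0.097). Within libraries 1 and 2 Irf1 passed (-0.38, adjusted p = 0.038), and within libraries 3 and 4 it did not (-0.38, adjusted p = 0.311). Usp18, the protease that removes ISG15 and damps the type I receptor, had 718, 649, 721 and 579 in WT and 364, 463, 574 and 614 in KO. KO 1 to KO 3 lay below all WT libraries and KO 4 did not. Of the fits by limma-trend, Usp18 passed in libraries 1 and 2 alone (-0.73, adjusted p = 0.021), against -0.12 within libraries 3 and 4 (adjusted p = 0.55), and over 8 libraries the difference was -0.43 ± 0.17 (adjusted p = 0.101). Irf7, the amplifier of type I interferon production, differed by 0.06 ± 0.40 and Irf9 by -0.18 ± 0.25, with adjusted p of 0.934 and 0.669 by limma-trend. Irf9 was called lower within libraries 3 and 4 (-0.45, adjusted p = 0.026) and was at 0.10 within libraries 1 and 2, and its exons overlap those of Rnf31 on the same strand. Socs1, the feedback inhibitor of JAK kinases, was at -0.59 ± 0.92 (adjusted p = 0.698) on values of 6 to 85.

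Among the antiviral effectors, 18 of 19 listed genes had values, 2 were called lower and none higher, and the median log2 difference was -0.19. Rsad2, whose product viperin makes a chain-terminating nucleotide, had 112, 125, 553 and 382 in WT and 73, 100, 302 and 230 in KO. KO was lower in every same-numbered pair, and the groups overlapped, with WT 1 and WT 2 below KO 3 and KO 4. Its difference of -0.63 had an adjusted p of 0.514 by limma-trend, 0.020 with the block and 0.034 within libraries 3 and 4. The Ifit genes, which bind viral RNA lacking host cap methylation, had log2 differences of 0.39 ± 0.31 for Ifit1, -0.11 ± 0.32 for Ifit2 and -0.27 ± 0.50 for Ifit3, and none passed the test. Ifit3 has a near-identical neighbour, Ifit3b, that can take its reads. The dynamin-like Mx1 and Mx2 were at -0.21 ± 0.31 and -0.43 ± 0.64, and the tetherin gene Bst2, which holds budding virus at the membrane, at -0.44 ± 0.27. None of these 3 was called. On the positive side, uncalled, were Ifitm3, which blocks viral entry from endosomes (0.34 ± 0.31), Samd9l (0.23 ± 0.12) and Xaf1 (0.21 ± 0.23). Ifi35, Ifi44, Ddx60 and Rtp4 lay between -0.43 and 0.06.

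The listed interferon-inducible GTPases with values all had negative differences in KO. Such GTPases attack the membranes of intracellular pathogens and are strongly driven by interferon-γ. Outside the list the family was mixed. Gbp8 (0.99 ± 0.24, called higher) and Gbp9 (0.23 ± 0.19, uncalled) were positive, and Tgtp1, Tgtp2, Gbp4, Irgm2 and Ifi47 were negative and uncalled over 8 libraries without the block. Of 7 listed, 6 had values, and none passed the test on 8 libraries. The median log2 difference was -0.55, with a range from -0.32 (Gbp7) to -1.55 (Iigp1), and all 6 were negative within each library set. Iigp1 had 529, 81, 720 and 427 in WT and 67, 56, 146 and 323 in KO. WT 2 stood with the KO libraries and KO 4 stood nearest to WT 4, so the groups overlapped widely. The difference was -1.55 ± 0.74, with an adjusted p of 0.175 by limma-trend, 0.044 with the block and 0.035 without WT replicate 2. Igtp had 521, 252, 909 and 529 in WT and 279, 288, 362 and 388 in KO. WT 2 was the lowest of all 8 libraries. Its difference was -0.62 ± 0.33 (adjusted p = 0.221), reaching an adjusted p of 0.027 without WT replicate 2. Gbp2 had 329, 167, 796 and 404 in WT and 222, 144, 311 and 476 in KO, Gbp3 139, 80, 338 and 201 against 86, 64, 99 and 183, and neither passed the test (-0.47 ± 0.49 and -0.72 ± 0.45). Gbp7 and Irgm1 were at -0.32 ± 0.24 and -0.34 ± 0.26. Within libraries 3 and 4, 3 GTPases were called lower (Gbp7, Igtp and Iigp1). Igtp overlaps Irgm2 on the same strand, so part of its reads cannot be assigned.

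The WT libraries stood in the same order at both ends in these genes. In all 6 GTPases, WT 3 was the highest and WT 2 the lowest WT library, an order seen in 14 of 34 members (41.2%) and in 8.17% of all genes. Ptprc, the pan-leukocyte marker CD45, had 468, 134, 593 and 339 in WT and 215, 248, 334 and 370 in KO, the same order within WT as Iigp1. The summed values of 5 pan-leukocyte markers, all of which had a row and none of which was 0 throughout, ran from 467 to 1611 in WT and from 640 to 1034 in KO. Their part in the GTPase result was not tested. Of 11 T-cell markers, Cd4 and Lck had values, which summed to 40 to 226 in WT and 94 to 165 in KO. The others, Cd3e among them, and all listed markers of natural killer cells and neutrophils are not analysed here. The macrophage markers with a row, 15 of 16, summed to 2866 to 5929 in WT and 5435 to 6230 in KO. B-cell markers with a row, 4 of 6, summed to 204 to 640 in WT and 84 to 280 in KO. All 4 had negative differences in KO, with a median of -0.76, and 1 was called lower. The part of these cells in the GTPase result was not tested.

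**Figure D2:**
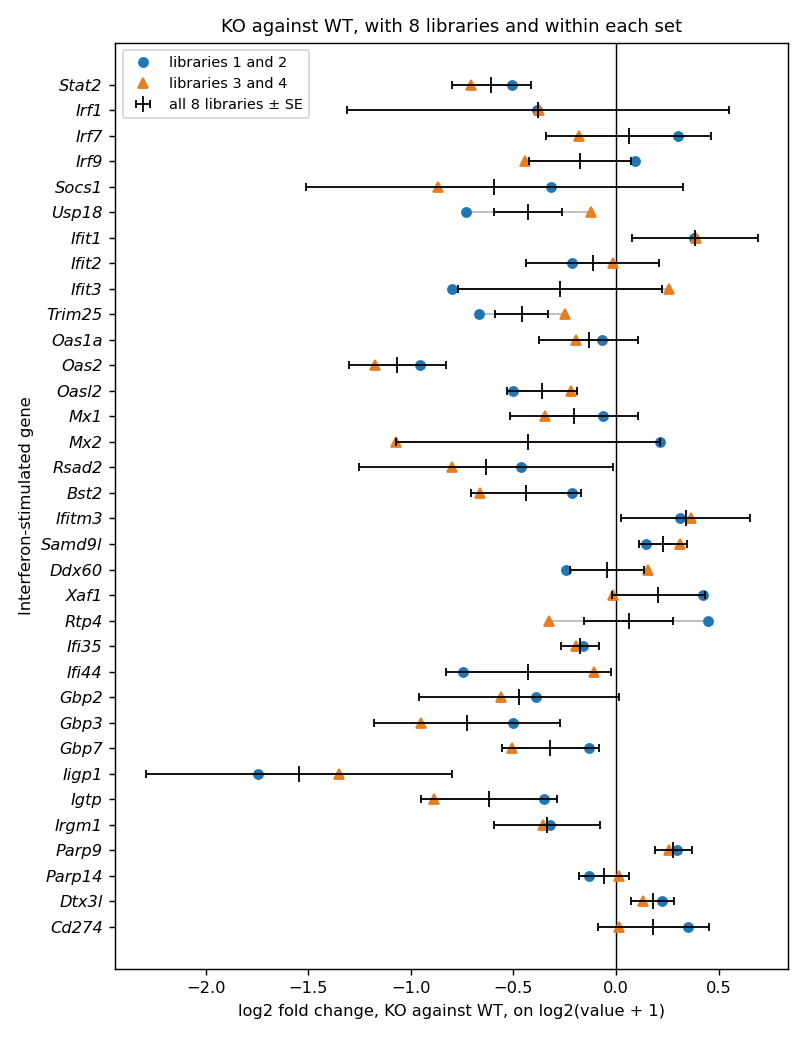
Log2 fold change of each interferon-stimulated gene, KO against WT, on log2(value + 1). Bars give the estimate ± SE over 8 libraries, blue circles the estimate within libraries 1 and 2, and orange triangles that within libraries 3 and 4. The 6 GTPases, Stat2 and Oas2 lie below 0 in both sets, and Parp9, Ifit1 and Samd9l above 0 in both.

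Within libraries 1 and 2, 3 members were lower in KO (Irf1, Usp18 and Trim25, all genes 10.8%) and none higher (all genes 12.2%). Within libraries 3 and 4, 7 members were lower (Stat2, Irf9, Oas2, Rsad2, Gbp7, Iigp1 and Igtp, all genes 11.4%) and none higher (all genes 11.4%). No member was called in both sets. Each set holds 2 mice per genotype, and a member called in one set is not shown to differ from the other. The test of that difference, the interaction of genotype and library set by limma-trend, called none of the 34 members, with a smallest adjusted p of 0.167 for Rtp4. It called 0.00708% of all genes in the positive direction and 0.0921% in the negative. At an unadjusted p below 0.05, 6 members differed between sets, against 18.8% of all genes.

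In the authors' deposited table, made with edgeR, 8 members were lower in KO at a false discovery rate below 0.05 (Stat2, Usp18, Trim25, Oas2, Rsad2, Gbp3, Iigp1 and Igtp) and none higher. The authors' deposited table called 13.1% of all its genes lower and 16.2% higher. Its log2 fold changes were -1.10 for Oas2, -0.60 for Stat2, -0.46 for Trim25 and -1.79 for Iigp1 in the authors' deposited table.

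The libraries numbered 3 and 4 were also compared with those numbered 1 and 2, in a fit with genotype and library set as terms. In that fit, 5 members were lower in KO (all genes 14.9%) and 1 was higher (all genes 17%). The division by number was known from earlier results of these data, so its tests describe the 8 libraries and are no independent evidence. In libraries 3 and 4, 15 of 34 members were higher than in libraries 1 and 2 (all genes 9.38%) and none was lower (all genes 6.06%). The median difference of the members was 0.61 on the log2 scale and that of all genes -0.02. In 17 members both libraries 3 and 4 exceeded both libraries 1 and 2 in each genotype (of 34, all genes 13.2%), and in Parp14 and Dtx3l both were lower in each genotype (all genes 13.1%). WT 3 was the highest of the 8 libraries for 23 members (67.6%, all genes 13.1%).

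Of 6 regulators, 5 were higher in libraries 3 and 4. Irf1, whose values are given above, differed by 2.76 ± 0.16 with a limma-trend adjusted p of 9.7e-06. Socs1 had 17, 6, 67 and 85 in WT libraries 1 to 4 and 8, 8, 54 and 31 in KO libraries 1 to 4. Libraries 3 and 4 were above libraries 1 and 2 throughout, and the difference was 2.49 ± 0.39 (adjusted p = 0.0025). Irf7 (1.13 ± 0.15), Irf9 (0.65 ± 0.13) and Stat2 (0.43 ± 0.13) were higher too, Stat2 with an adjusted p of 0.04998 at the edge of the threshold. Usp18 did not pass (0.23 ± 0.15).

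Of 18 antiviral effectors, 5 were higher in libraries 3 and 4. They were Rsad2 (1.78 ± 0.18, limma-trend adjusted p = 0.00020), Mx2, Ifit3, Ifitm3 (0.81 ± 0.16) and Ifit2 (0.77 ± 0.20). Mx2 had 50, 44, 302 and 179 in WT and 69, 43, 148 and 82 in KO. WT 3 and WT 4 were the highest and KO 4 stood close to KO 1, with a difference of 1.64 ± 0.33 (adjusted p = 0.0094). Ifit3 had 56, 75, 143 and 78 in WT and 33, 41, 124 and 129 in KO. WT 4 was nearly at the level of WT 2, and the separation was clearer in KO, with a difference of 1.23 ± 0.28 (adjusted p = 0.018). The synthetases Oas1a (-0.20 ± 0.23), Oas2 (0.19 ± 0.23) and Oasl2 (0.21 ± 0.16) and Trim25 (-0.22 ± 0.11) did not pass. Oas2 and Trim25, called between genotypes with and without the block, were thus not called between library sets. Of the members called with the block and not without it, Stat2, Irf1 and Rsad2 were called between library sets. Iigp1 and Parp9 were not.

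Of 6 GTPases, 4 were higher in libraries 3 and 4, namely Gbp2 (1.19 ± 0.28), Gbp3 (1.07 ± 0.28), Irgm1 (0.61 ± 0.16) and Gbp7 (0.57 ± 0.14). Iigp1 had the largest difference of the 6 and missed the threshold (1.61 ± 0.51, limma-trend adjusted p = 0.062), with WT 1 high among libraries 1 and 2, and it passed without WT replicate 1. The checkpoint ligand gene Cd274, which encodes PD-L1 and is induced by interferon-γ through Irf1, was higher in libraries 3 and 4 (0.62 ± 0.17, adjusted p = 0.040). Cd274 had 449, 328, 837 and 527 in WT and 555, 432, 627 and 717 in KO, and between genotypes it differed by 0.18 ± 0.27 (adjusted p = 0.682). WT 3 was the highest and WT 2 the lowest for Cd274 as for the GTPases. None of the 3 ADP-ribosylation genes was called.

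**Figure D3:**
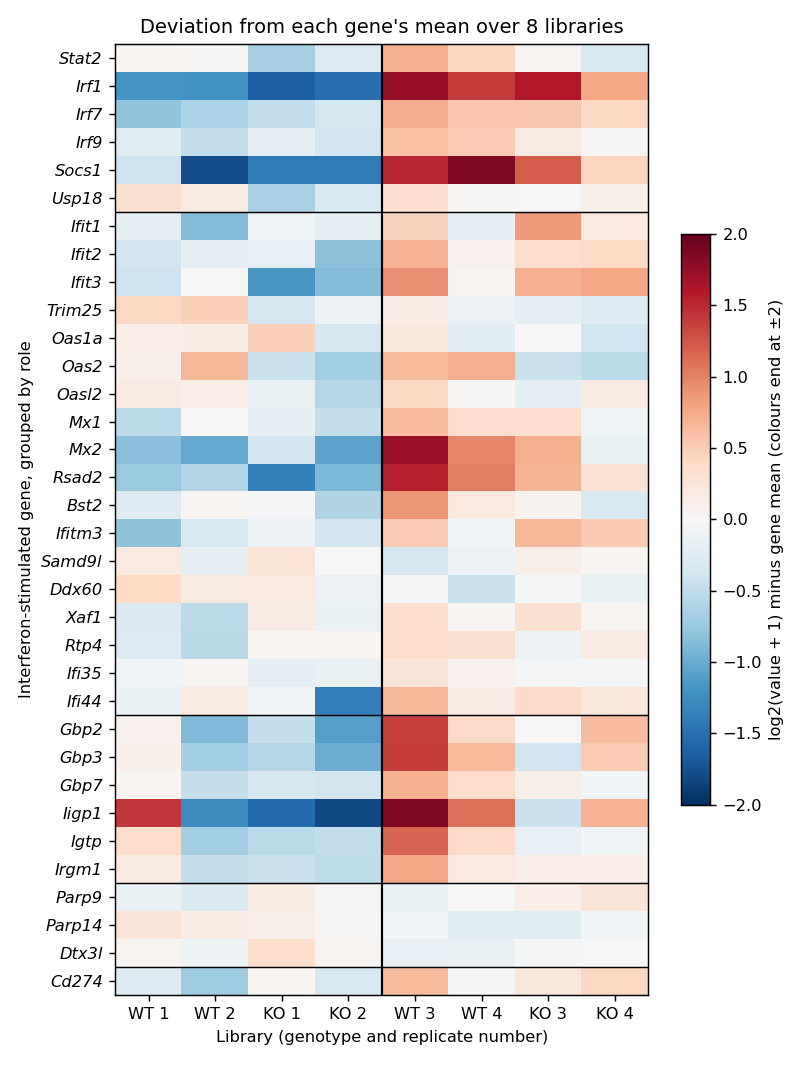
Deviation of each of the 34 interferon-stimulated genes from its own mean over 8 libraries, as log2(value + 1), with libraries 1 and 2 left of the vertical line and 3 and 4 right of it. Horizontal lines separate the roles. Red fills most of the WT 3 column and blue most of the KO 2 column, whose median deviations were 0.64 and -0.38.

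Within the WT libraries alone 10 members were higher in libraries 3 and 4 (all genes 8.13%) and none lower (all genes 4.55%). Within the KO libraries alone 7 were higher (all genes 4.56%) and none lower (all genes 1.95%). Irf1, Irf7 and Rsad2 were called in both. Irf1 differed by 2.75 in WT and 2.76 in KO. Without WT replicate 3 the count over 8 libraries fell from 15 to 7, and without WT replicate 2, KO replicate 2 or KO replicate 3 it was 9. Irf1, Socs1, Irf7, Irf9, Rsad2, Mx2 and Ifitm3 passed in each of these 4 fits. The immediate early genes given above moved with this result, as did 7 of 15 macrophage, 7 of 9 stellate and 5 of 8 endothelial markers, which were higher in libraries 3 and 4. Stellate markers had a median difference of 1.51 and summed to 13480 to 21657 in libraries 1 and 2 and 15414 to 34541 in libraries 3 and 4. Endothelial markers had a median of 0.41 and summed to 13266 to 15732 and 15295 to 22438. Of 12 acinar markers none was called over 8 libraries, with a median of 1.51. Within WT alone 10 of the 12 were called higher (median 2.54), and within KO alone none was (median 0.49). Macrophage markers summed to 2866 to 6230 in libraries 1 and 2 and 5593 to 6199 in libraries 3 and 4, and 5 pan-leukocyte markers to 467 to 1059 and 952 to 1611. Their part in the difference was not tested.

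**Figure D4:**
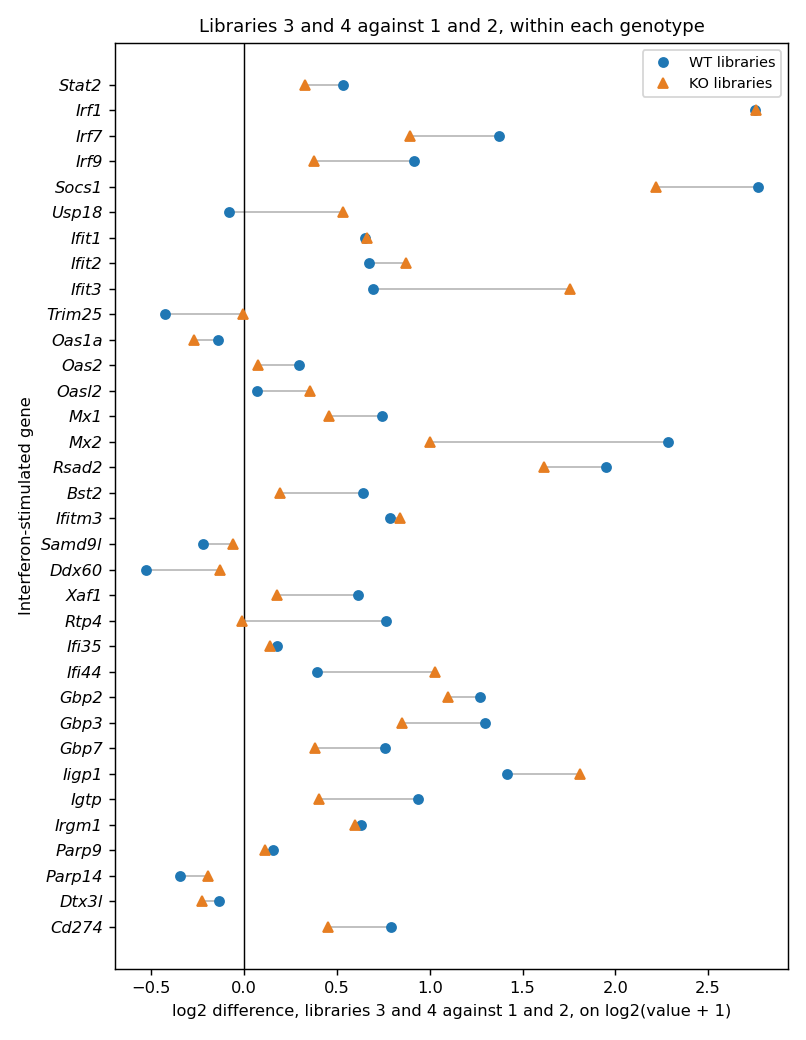
Log2 difference of libraries 3 and 4 against libraries 1 and 2 for each gene, within WT (blue circles) and within KO (orange triangles). The points of Irf1 coincide near 2.76, and Socs1, Rsad2 and Iigp1 are far to the right in both genotypes. Oas1a, Samd9l, Ddx60, Parp14 and Dtx3l lie left of 0 in both genotypes, as does Trim25, whose KO point is almost at 0.

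Compared per kilobase of merged exon, the levels of the members spanned a wide range. In WT the mean normalized value per kilobase was 1346 ± 1178 (SD, n = 4) for Irf1, with libraries 3 and 4 far above the others, then 380.3 ± 34.3 for Ifi35, 368.7 ± 59.3 for Samd9l and 338.1 ± 130 for Ifitm3. The SDs of these 4 genes overlap. The lowest were Ifi44 at 8.28 ± 2.0, Mx1 at 12.9 ± 4.20, Oas2 at 14.2 ± 2.58 and Socs1 at 15.04 ± 13.1. Oas2, the member with the clearest genotype difference, was thus among the least abundant, and fell to 6.57 ± 0.53 in KO.

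The other genes of the pathway were taken from lists of receptors, signalling components and further targets. Of 6 receptor genes, Ifnar2, the ligand-binding chain of the type I receptor, was higher in KO (all genes 11.1%) and none was lower (all genes 9.81%). Ifnar2 had 577, 642, 587 and 715 in WT and 959, 897, 883 and 863 in KO, with no overlap and a log2 difference of 0.52 ± 0.09 (limma-trend adjusted p = 0.0047). Its partner Ifnar1 was at -0.05 ± 0.08 (adjusted p = 0.727), Ifngr1 at 0.11 ± 0.11 and Ifngr2 at 0.32 ± 0.11 (adjusted p = 0.065). Ifnlr1 and Il10rb, the lambda receptor pair, were at 0.44 ± 0.20 and 0.05 ± 0.10, both uncalled. The interferon genes themselves, 20 on the list, are not analysed here.

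Of 14 signalling genes, 4 were lower in KO (all genes 9.81%) and none higher (all genes 11.1%). They were the kinases Jak1 (-0.48 ± 0.08, limma-trend adjusted p = 0.0031) and Tyk2 (-0.34 ± 0.09, adjusted p = 0.033) and the phosphatases Ptpn11 (-0.43 ± 0.09, adjusted p = 0.0091) and Ptpn6 (-0.36 ± 0.10, adjusted p = 0.031), which are SHP-2 and SHP-1. Jak1 had 6334, 5989, 5408 and 5342 in WT and 4053, 3986, 4217 and 4307 in KO, with no overlap. Both kinases of the type I receptor were thus lower while its Ifnar2 chain was higher. Jak1, Ptpn11 and Ifnar2 were also called within both library sets, and Tyk2 and Ptpn6 within libraries 3 and 4 only. Stat3 was at -0.27 ± 0.17 (adjusted p = 0.305) and was not called. Between library sets, 6 of the 14 were higher in libraries 3 and 4 (all genes 9.38%), led by the feedback inhibitor Socs3 at 4.66 (adjusted p = 1.6e-05). Socs3 is also on the list of immediate early genes.

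Of 70 further interferon-stimulated genes, 56 had values, and 6 were higher and 6 lower in KO, near the shares of all genes given above. The higher were Epsti1 (1.45 ± 0.38), Gbp8 (0.99 ± 0.24), the ISG15-conjugating enzyme Ube2l6 (0.67 ± 0.15), Ifitm2 (0.43 ± 0.10), Ly6e (0.43 ± 0.11) and Lgals3bp (0.38 ± 0.10). The lower were Tor3a (-0.53 ± 0.10), Ifi27 (-0.44 ± 0.11), Cmpk2 (-0.42 ± 0.10), Parp10 (-0.39 ± 0.10), the cap methyltransferase Cmtr1 (-0.37 ± 0.08) and Tdrd7 (-0.34 ± 0.09). Of these, Ube2l6, Tor3a, Cmpk2 and Cmtr1 were called within both library sets. Epsti1, Ifitm2, Ly6e, Lgals3bp, Ifi27 and Tdrd7 were called within libraries 1 and 2 only, and Gbp8 and Parp10 within libraries 3 and 4 only. Epsti1 was at 2.23 within libraries 1 and 2 and 0.67 within libraries 3 and 4. Cmpk2 is the genomic neighbour of Rsad2. Gbp8 shares exons with Gbp4, which was at -0.82 ± 0.50 and uncalled, so their reads could be split. Without KO replicate 1 the counts were 2 higher and 3 lower. Without WT replicate 3 there were 3 lower, and leaving out WT 1, WT 2, KO 2 or KO 4 left 3 higher. With the replicate block, 5 were higher and 9 lower, among them the T-cell-specific GTPase gene Tgtp2 (-1.58 ± 0.57, limma-trend adjusted p = 0.079 without the block and 0.027 with it). Tgtp2 had 484, 139, 892 and 371 in WT and 95, 77, 135 and 275 in KO, with WT 3 highest and WT 2 lowest in WT, as in the GTPases of the list.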

How the data were processed

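Bulk RNA sequencing libraries of islets from 4 WT and 4 KO mice were compared, with groups and replicate numbers taken from the sample titles. The submitters' processing notes name GRCm38.p5 as the build and, with no settings, the programs RSEM 1.2.31, STAR 2.5.3a, edgeR 3.16.15 and bcl2fastq 2.20. The authors deposited 1 table of 14126 genes. Its 8 library columns are handled as a score: they look like normalized counts written by the authors without decimals. The other columns hold the authors' log2 fold change and p-value with its false discovery rate. No value column was without a sample.

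Values were tested as log2(value + 1) with limma 3.58.1 (R 4.3.3, limma-trend) on the 14121 genes that reached 1 in 4 or more libraries. Benjamini-Hochberg adjustment ran over all of them, with 0.05 as the threshold. The code was tested on simulated data. Median-of-ratios factors were 0.994 to 1.01. Same-numbered WT and KO libraries deviated together across genes with a mean above 50 (Pearson r across genes 0.327, 0.583, 0.664 and 0.381). Libraries of different number were not compared, and a difference between library sets shared by both genotypes also enters these r values. The check therefore cannot show that the numbers pair the libraries. The block is an alternative fit, and blocked values stand beside results they change. Alternatives were the pseudocount (0.1 or 5), the low-value filter (none, or 10 in 4 libraries), 2 other scalings, the block, the library set as a term, each set alone, the authors' result, and each library left out.

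The members, the lists and the division of the libraries were chosen with earlier results of these data known. Values in every library are given for members called between genotypes over 8 libraries and for the 6 largest differences between library sets. They are also given for some others whose call changes with the fit, though not for Irf9, Gbp7 or Samd9l. Of the other pathway genes, receptors and up to 6 called genes per list are named. Stat3, Gbp4, Gbp9, Tgtp1, Tgtp2, Irgm2 and Ifi47 were added after their values were seen. Gene positions and overlaps come from GENCODE M21.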

Additional observations from a re-analysis of the deposited data

Results flagged for a closer look

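In Oas2, the WT group held 1 library far from the others: WT 1 had a normalized value of 46, while WT 2 to WT 4 had 67 to 71. Of 68 groups of 4 libraries examined in the members this was the only such case, and chance marks about 1 in 20 groups. The WT 1 value was the WT library nearest to the KO libraries. Without it, the log2 difference of Oas2 was -1.21 (limma-trend adjusted p = 0.0123) against -1.06 with it, and Oas2 was lower in KO than in WT in all 4 same-numbered pairs.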

How the results depend on the processing

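The median log2 difference of the members between genotypes was negative in every fit run, from -0.387 to -0.081 when each library was left out. The count of members higher in KO, 0, was 1 with totals that leave out hormone and mitochondrial genes, 1 with the replicate block and 1 with the library set as a term, and 0 to 1 with each library left out. The count lower in KO, 2, was 1 with the totals without hormone genes, 6 with the replicate block, 5 with the set as a term, 7 in libraries 3 and 4 alone and 8 in the authors' deposited table, and 1 to 3 with each library left out. For further interferon-stimulated genes the count lower was 10 with the set as a term, 10 in libraries 3 and 4 alone and 12 in the authors' deposited table. With each library left out it was 3 to 6, and the count higher 2 to 6. Between library sets, the count of members higher was 7 in the KO libraries alone and 7 to 14 with each library left out, and the count lower was 1 with the totals without hormone genes and 0 to 1 with each library left out. Trim25 lost its call with those totals.

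Some members changed sign, none of them called on 8 libraries without the block. Irf1, which was called with the block, was among them. Within libraries 3 and 4 the log2 difference was -0.178 for Irf7, 0.257 for Ifit3, 0.154 for Ddx60, -0.014 for Xaf1, -0.324 for Rtp4 and 0.016 for Parp14, and within libraries 1 and 2 it was 0.095 for Irf9 and 0.212 for Mx2. With each library left out, it ran from -0.98 to 0.136 for Irf1, -0.192 to 0.323 for Irf7, -0.267 to 0.142 for Ifit2, -0.573 to 0.072 for Ifit3, -0.84 to 0.077 for Mx2, -0.203 to 0.078 for Ddx60, -0.113 to 0.197 for Rtp4, -0.145 to 0.018 for Parp14 and -0.025 to 0.425 for Cd274. The causes were not tested. The block changed no other call of a member than those given with the results. Depth is unknown, so the part of counting error in members with low values cannot be given.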

Other observations

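Markers of cells that make or answer interferon moved with genotype in a few genes. Siglech, a lectin used to mark plasmacytoid dendritic cells, the main producers of type I interferon, had 26, 35, 62 and 63 in WT libraries 1 to 4 and 10, 9, 19 and 17 in KO libraries. All KO values were below all WT values, with a log2 difference of -1.66 ± 0.42 (limma-trend adjusted p = 0.024). It was the only one of 4 dendritic cell markers with a row that passed the test, and it was named after its value was seen. Over those 4 markers, 2 differences were positive and 2 negative, with a median of 0.11, and the summed values were 331 to 557 in WT and 352 to 648 in KO. Of 15 macrophage markers, 2 were higher in KO and none lower. Cd68, a lysosomal marker of macrophages, did not pass (0.44 ± 0.37, adjusted p = 0.445), nor did Adgre1, which encodes F4/80 (-0.01 ± 0.26, adjusted p = 0.986).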
